A study of Mus musculus with 6 samples.

Results

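The genes described here are 8 targets of the transcription factor NRF2 (Gclc, Gclm, Txnrd1, Gstm1, Nqo1, Hmox1, Srxn1 and Slc7a11) and 2 cytochrome P450 genes of the CYP1 family that are targets of the aryl hydrocarbon receptor, AHR (Cyp1a1 and Cyp1b1). They were taken by gene symbol, and all 10 were found among the 24067 genes of the deposited table. The tissue was labelled submandibular salivary gland of the mouse (strain ICR, embryonic day 13), with 3 RNA-seq libraries of blebbistatin-treated tissue and 3 of control tissue. Blebbistatin inhibits the ATPase of non-muscle myosin II and so the contraction of actin and myosin. The title of the series names epithelial buds and the tissue label the gland. In every library the 7 epithelial markers described below summed to at least 1200 FPKM and the 10 mesenchyme markers to at most 32.3 FPKM. The sources used here do not state the dose, duration, vehicle or number of pooled glands or buds. It is also not stated whether replicates were separate cultures, so p-values cover only the spread among these libraries, part or all of which may be technical.

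NRF2, encoded by Nfe2l2, is held at low levels by the adaptor KEAP1, which delivers it to a CUL3 ubiquitin ligase. Oxidants and electrophiles modify KEAP1, NRF2 then enters the nucleus, pairs with a small MAF protein and binds antioxidant response elements (AREs) in genes for glutathione synthesis, the thioredoxin system, quinone reduction and heme breakdown. AHR waits in the cytoplasm with HSP90 chaperones, moves to the nucleus when it binds a planar aromatic ligand, pairs with ARNT and binds xenobiotic response elements (XREs) in genes such as Cyp1a1 and Cyp1b1. Nqo1 is a known target of both factors.

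Promoter windows of 250 bases before the annotated start are shown for Gclm, Srxn1, the middle and downstream starts of Txnrd1, Cyp1a1 and Cyp1b1. RefSeq promoter entries (build GRCm38.p6, the assembly also called mm10) were matched for 8 of the 10 genes, with 11 windows in all. The ARE core was searched as TGACNNNGC and TGAGNNNGC and the XRE core as GCGTG, each on both strands. Either ARE spelling stood in 4 of the 11 windows, against 23% of 32851 windows genome-wide, and GCGTG stood in 9 of the 11, against 28.2%. Counted by gene, an ARE spelling stood in 4 of the 8 and GCGTG in 6 of the 8. The genome-wide shares are per window, no share per gene was computed, and base composition was not taken into account. The windows are not independent, since Txnrd1 gives 3 of them and the 2 Gstm1 windows overlap and hold the same GCGTG. The 2 ARE spellings can overlap on opposite strands, and 1.53% of all windows held both. Capitals mark the matches on the printed strand, so that a match on the opposite strand reads as its reverse complement. Sequences run 5′ to 3′ on the strand of the gene.
Gclm, chr3:122245307-122245556, plus strand: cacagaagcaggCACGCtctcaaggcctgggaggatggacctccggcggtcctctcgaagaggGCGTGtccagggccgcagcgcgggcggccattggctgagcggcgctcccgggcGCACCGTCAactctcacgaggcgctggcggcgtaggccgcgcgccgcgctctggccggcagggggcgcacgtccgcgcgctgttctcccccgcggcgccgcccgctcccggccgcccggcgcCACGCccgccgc
Srxn1, chr2:152105274-152105523, plus strand: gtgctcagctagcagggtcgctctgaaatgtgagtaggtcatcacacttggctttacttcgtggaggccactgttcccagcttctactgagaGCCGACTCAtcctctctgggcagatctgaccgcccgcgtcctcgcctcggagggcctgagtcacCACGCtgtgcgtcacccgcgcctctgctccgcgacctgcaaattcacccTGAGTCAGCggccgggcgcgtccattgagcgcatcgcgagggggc
Txnrd1, middle start, chr10:82858956-82859205, plus strand: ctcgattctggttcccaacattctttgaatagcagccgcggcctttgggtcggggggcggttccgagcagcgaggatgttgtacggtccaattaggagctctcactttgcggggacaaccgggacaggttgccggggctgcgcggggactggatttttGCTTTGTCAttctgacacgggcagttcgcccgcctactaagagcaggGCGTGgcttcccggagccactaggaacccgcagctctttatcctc
Txnrd1, downstream start, chr10:82860091-82860340, plus strand: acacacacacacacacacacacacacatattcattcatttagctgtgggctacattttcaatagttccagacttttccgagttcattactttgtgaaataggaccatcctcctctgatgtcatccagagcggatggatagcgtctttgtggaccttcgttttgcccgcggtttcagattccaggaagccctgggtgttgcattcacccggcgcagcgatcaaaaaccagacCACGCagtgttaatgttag
Cyp1a1, chr9:57697363-57697612, plus strand: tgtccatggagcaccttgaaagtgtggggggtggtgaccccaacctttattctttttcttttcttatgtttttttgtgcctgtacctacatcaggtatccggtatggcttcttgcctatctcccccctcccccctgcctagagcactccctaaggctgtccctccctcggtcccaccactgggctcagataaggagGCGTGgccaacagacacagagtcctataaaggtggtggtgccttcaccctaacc
Cyp1b1, chr17:79715062-79715311, minus strand: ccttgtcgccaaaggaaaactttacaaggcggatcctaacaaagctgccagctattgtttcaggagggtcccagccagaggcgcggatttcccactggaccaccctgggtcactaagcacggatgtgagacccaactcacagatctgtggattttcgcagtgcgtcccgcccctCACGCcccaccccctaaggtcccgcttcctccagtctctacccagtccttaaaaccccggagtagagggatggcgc
Gclm holds TGACGGTGC on the minus strand from -134 to -126, counted from the start. Srxn1 holds TGAGTCGGC on the minus strand from -158 to -150 and TGAGTCAGC on the plus strand from -45 to -37. Of the 3 annotated Txnrd1 starts, the middle one holds TGACAAAGC on the minus strand from -92 to -84, and the windows of the other two hold neither ARE spelling. Among the genes not printed, Slc7a11 holds TGAGAAAGC on the minus strand from -97 to -89. The Gstm1 windows hold GCGTG and no ARE spelling, and the Nqo1 window holds none of the strings searched. Cyp1a1 holds GCGTG from -54 to -50 on the plus strand, and Cyp1b1 holds it from -76 to -72 on the minus strand. The Cyp1b1 positions are counted from the RefSeq start at 79715061, whereas the deposited annotation starts that gene at 79715041. A match of this kind is a string of letters and not a measured binding site, and elements farther from the start lie outside these windows.

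The data are FPKM values, that is fragments scaled by transcript length and library size, so that levels can be compared between genes. Library depth, estimated from the FPKM worth of 1 fragment in long genes with 1 transcript, was 28200000 to 28800000 fragments in blebbistatin libraries and 28700000 to 34200000 fragments in control libraries. The estimate rests on 69 to 84 genes per library and on values inside a window set in advance, which bounds it. All fragment numbers given below depend on it. The 7 epithelial markers summed to between 1200 and 1560 FPKM in blebbistatin libraries and between 1270 and 1590 FPKM in control libraries. The macrophage and leukocyte list (11 genes, 2 with a mean of at least 1 FPKM) summed to 2.35 to 4.94 FPKM in blebbistatin libraries and 3.28 to 4.65 FPKM in control libraries. None of the 6 endothelial and 9 neuronal and Schwann genes had a mean of at least 1 FPKM. The endothelial sum was 0.802 to 0.961 FPKM under blebbistatin and 0.549 to 0.681 FPKM in controls, and the neuronal and Schwann sum 2.16 to 3.24 FPKM under blebbistatin and 1.34 to 3.65 FPKM in controls. The mesenchyme list (10 genes) summed to 21.7 to 24.0 FPKM in blebbistatin libraries and 18.9 to 32.3 FPKM in control libraries. Postn made up much of that sum, at 19.7, 14.9 and 12.4 FPKM under blebbistatin and 10.8, 13.1 and 16.0 FPKM in controls, while 8 of the 10 genes had lower means under blebbistatin. Pdgfra was the 1 gene of that list whose groups did not overlap, at 0.479, 0.418 and 0.558 FPKM under blebbistatin and 1.03, 0.717 and 0.626 FPKM in controls. Of all genes tested, 6.8% lay lower and 7.48% higher without overlap. Those shares cover only genes with a mean of at least 1 FPKM, and Pdgfra lay below that level. Other lists also held genes without overlap, all with means under 1 FPKM. These were 1 erythroid gene lower, 2 endothelial genes higher and 1 lower, and 1 macrophage and leukocyte gene higher. The part of the mesenchyme in the results was not tested. Erythroid transcripts differed most between libraries, with sums of 1.12, 6.77 and 70.7 FPKM under blebbistatin and 224, 1.94 and 252 FPKM in controls. No list had a marker at 0 in all 6 libraries. In bulk RNA, fewer cells of a type and less RNA per cell cannot be told apart.

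All 10 genes were detected in every library, over a wide range of levels. Ordered by mean FPKM over the 6 libraries they were Txnrd1 (57.1), Gstm1 (54.4), Cyp1b1 (43.9), Gclm (16.6), Gclc (13.2), Nqo1 (11.01), Cyp1a1 (6.14), Srxn1 (3.58), Hmox1 (2.55) and Slc7a11 (0.542). The ranges of neighbours in this order overlapped, except that every Cyp1b1 value lay above every Gclm value and every Hmox1 value above every Slc7a11 value. Within single libraries, Gclm also lay above Gclc, and Nqo1 above Cyp1a1, in all 6. The filter for the gene test, a mean of at least 1 FPKM, was passed by 7 of the 8 NRF2 targets and by both Cyp1 genes.

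All 7 NRF2 targets tested had higher mean log2 values under blebbistatin, Hmox1 by only 0.0067, and none passed an adjusted p of 0.05. Their median log2 fold change was 0.28, against 0.015 over the 11540 genes tested, of which 55.2% had a higher mean. Over all genes 9 passed, or 0.078%. At an unadjusted p of 0.05, 2 of the 7 were higher (Gclc and Gclm) and 0 were lower, while 4.46% of all genes tested were higher and 4.9% lower. In 3 of the 7, Gclc, Gclm and Txnrd1, every blebbistatin library lay above every control, against 7.48% of all genes tested. The members were chosen with earlier results of these data known, so these contrasts with all genes are descriptive and not a test. Without blebbistatin replicate 1 the median log2 fold change of the 7 was 0.12, and without control replicate 2 it was 0.17.

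**Figure D1:**
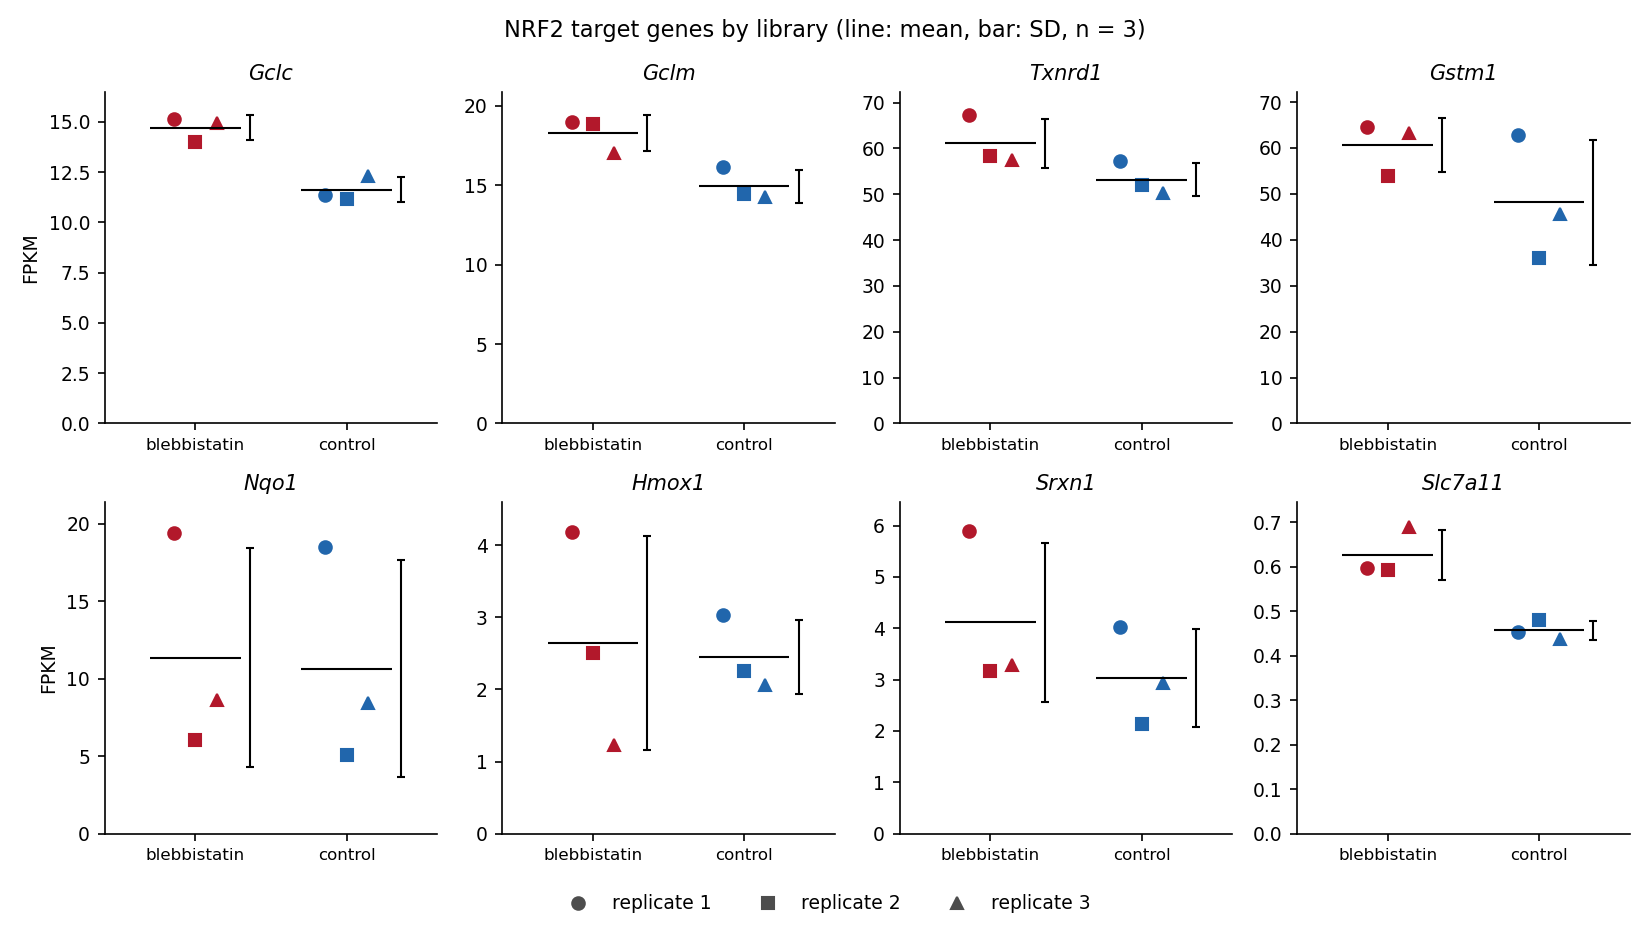
FPKM of the 8 NRF2 targets in each library, with blebbistatin left of control in each panel. Marker shape gives the replicate number, the horizontal line the mean and the bar the SD over 3 libraries. The groups do not overlap for Gclc, Gclm, Txnrd1 and Slc7a11. For Txnrd1 the lowest treated library (57.5 FPKM) lies barely above the highest control (57.3 FPKM). Replicate 1 of each group is the highest of its group for all but Gclc and Slc7a11.

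Glutathione synthesis begins with glutamate-cysteine ligase, whose catalytic subunit is encoded by Gclc and whose modifier subunit is encoded by Gclm. Gclc stood at 15.2, 14.0 and 15.0 FPKM in blebbistatin libraries and 11.4, 11.2 and 12.3 FPKM in controls. The lowest treated library lay above the highest control, with means of 14.7 ± 0.63 FPKM under blebbistatin and 11.6 ± 0.61 FPKM in controls (SD, n = 3 each). Its log2 fold change was 0.32 ± 0.08 (SE, limma adjusted p = 0.202), and it ranged from 0.28 to 0.36 over 13 alternative settings. Gclm stood at 19.0, 18.9 and 17.0 FPKM under blebbistatin and 16.1, 14.4 and 14.3 FPKM in controls, again without overlap. Its log2 fold change was 0.28 ± 0.09 (limma adjusted p = 0.311), and it ranged from 0.25 to 0.33 over the same settings. Both subunits had higher means in all 13 settings, and neither passed in any of them.

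Slc7a11 encodes xCT, the transporter that imports cystine for glutathione synthesis, and is a known target of both NRF2 and ATF4. It was the member with the lowest level, at 0.597, 0.593 and 0.690 FPKM in blebbistatin libraries and 0.454, 0.481 and 0.437 FPKM in controls. Each value corresponds to an estimated 117 to 179 fragments. The 3 treated libraries lay above the 3 controls, and the mean was 1.37 times that of controls (0.627 ± 0.055 FPKM under blebbistatin and 0.457 ± 0.022 FPKM in controls, SD, n = 3 each). The two-sided exact permutation test gave p = 0.1, the smallest that 3 libraries against 3 allow. The gene lay below the filter, and in a fit with no filter its log2 fold change was 0.16 with a limma adjusted p of 0.318.

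Gstm1 encodes a mu-class glutathione S-transferase, which joins glutathione to electrophiles. It stood at 64.6, 53.9 and 63.4 FPKM under blebbistatin and 62.8, 36.0 and 45.6 FPKM in controls. Control replicate 1 lay within the treated range, and the other 2 controls lay below all treated libraries. Gstm1 had a log2 fold change of 0.36 ± 0.19 (SE, limma adjusted p = 0.654), which became 0.56 when control replicate 1 was left out and 0.17 when control replicate 2 was. The mu-class genes lie in a cluster of similar sequence, so fragments may be shared among them. Gstm2 of the same cluster stood at 26.9, 26.1 and 28.6 FPKM under blebbistatin and 21.7, 22.1 and 21.2 FPKM in controls (log2 fold change 0.31 ± 0.08, limma adjusted p = 0.193). Of the other mu-class genes of the lists, Gstm3 and Gstm6 had means under 1 FPKM and were not tested, and Gstm4 and Gstm5, named after their values were seen, overlapped between groups. Gstm4 averaged 5.35 FPKM under blebbistatin and 5.81 FPKM in controls, and Gstm5 averaged 52.8 FPKM under blebbistatin and 58.8 FPKM in controls.

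Txnrd1 encodes the cytosolic thioredoxin reductase, a selenoprotein that keeps thioredoxin reduced. Summed over its 4 annotated transcripts it stood at 67.3, 58.4 and 57.5 FPKM in blebbistatin libraries and 57.3, 51.9 and 50.4 FPKM in controls. The groups did not overlap, but the lowest treated library (57.5 FPKM) lay barely above the highest control (57.3 FPKM). That gap was far smaller than the SD of either group (5.43 FPKM under blebbistatin and 3.65 FPKM in controls). Txnrd1 had a log2 fold change of 0.19 ± 0.10 (SE, limma adjusted p = 0.646), and of 0.12 without blebbistatin replicate 1. Srxn1 encodes sulfiredoxin, which repairs overoxidized peroxiredoxins. It stood at 5.90, 3.17 and 3.28 FPKM under blebbistatin and 4.03, 2.14 and 2.93 FPKM in controls, and the groups overlapped. Its log2 fold change was 0.33 ± 0.23 (limma adjusted p = 0.836), but 0.093 without blebbistatin replicate 1. It was 0.16 when control replicate 2 was left out, and 0.50 when control replicate 1 was.

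The 4 Txnrd1 transcripts use 3 starts on chromosome 10, at 82833951, 82859206 and 82860341. The middle start gave most of the RNA, and any tie between its level and the ARE spelling in its window was not tested. The 2 transcripts of the middle start summed to 62.0, 49.9 and 48.6 FPKM under blebbistatin and 46.5, 37.8 and 43.2 FPKM in controls, without overlap. The lowest treated library exceeded the highest control by less than the SD of either group (7.37 FPKM under blebbistatin and 4.39 FPKM in controls). The downstream start gave 5.11, 8.20 and 8.22 FPKM under blebbistatin and 10.7, 13.8 and 7.10 FPKM in controls, and the upstream start stayed below 1 FPKM in every library. The 2 middle-start transcripts, of 3310 and 3417 nt, had log2 fold changes of 0.47 ± 0.14 and 0.30 ± 0.12 (SE), and the downstream transcript one of -0.48 ± 0.25 (limma adjusted p of 0.369, 0.598 and 0.728). Leaving out blebbistatin replicate 1 gave 0.19 for the 3417-nt transcript and -0.28 for the downstream one, which was -0.27 without control replicate 2. Both middle-start transcripts had an unadjusted p under 0.05, as did 3.8% of the 14460 transcripts tested in the higher direction, and 0.00692% of all transcripts passed after adjustment.

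The downstream transcript made up 7.60%, 14.1% and 14.3% of Txnrd1 FPKM under blebbistatin and 18.6%, 26.7% and 14.1% in controls. Blebbistatin replicates 2 and 3 lay close to control replicate 3, and the groups overlapped. The test of the share gave a limma adjusted p of 0.983, and 0% of the 4997 transcript shares tested passed (233 at an unadjusted p of 0.05). These transcripts share most of their exons, and their separate levels are estimates from the few bases that differ.

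**Figure D2:**
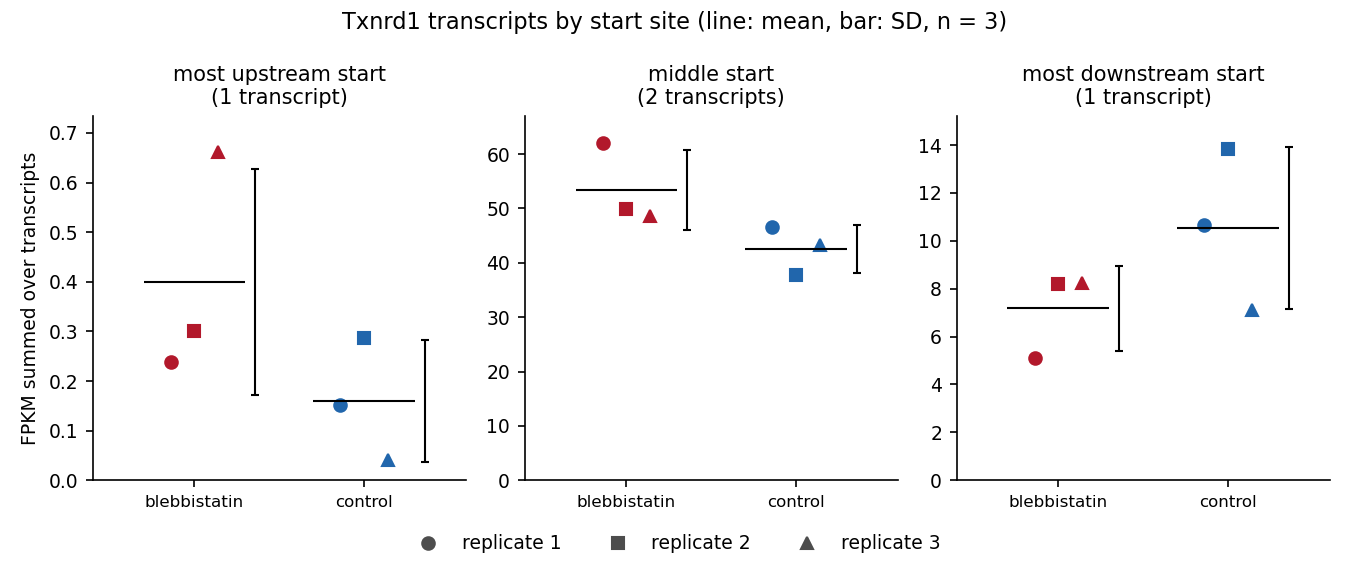
FPKM of Txnrd1 summed over the transcripts of each start site, with blebbistatin left of control. Marker shape gives the replicate number, the line the mean and the bar the SD over 3 libraries, and each panel has its own scale. The middle start lies higher in every blebbistatin library (48.6 to 62.0 FPKM) than in any control (37.8 to 46.5 FPKM), with a gap smaller than the SD of either group, while the downstream start overlaps.

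For Nqo1, a quinone reductase, and Hmox1, the inducible heme oxygenase, the difference between groups was smaller than the spread of the libraries. Nqo1 stood at 19.4, 6.07 and 8.60 FPKM under blebbistatin and 18.5, 5.05 and 8.45 FPKM in controls. Replicate 1 was by far the highest in both groups, and the SD of each group (7.08 FPKM under blebbistatin and 6.99 FPKM in controls) was several times the difference between means. Its log2 fold change of 0.10 had a 95% interval from -0.99 to 1.20 (limma adjusted p = 0.999), and it turned negative without blebbistatin replicate 1 or control replicate 2. Hmox1 stood at 4.19, 2.51 and 1.24 FPKM under blebbistatin and 3.03, 2.26 and 2.06 FPKM in controls, from an estimated 55 to 189 fragments. Blebbistatin libraries held both the highest and the lowest value. Hmox1 had a log2 fold change of 0.0067 with an interval from -0.62 to 0.64, and its sign changed with median-of-ratios rescaling (-0.0069) and with a pseudocount of 0.1 FPKM (-0.030).

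**Figure D3:**
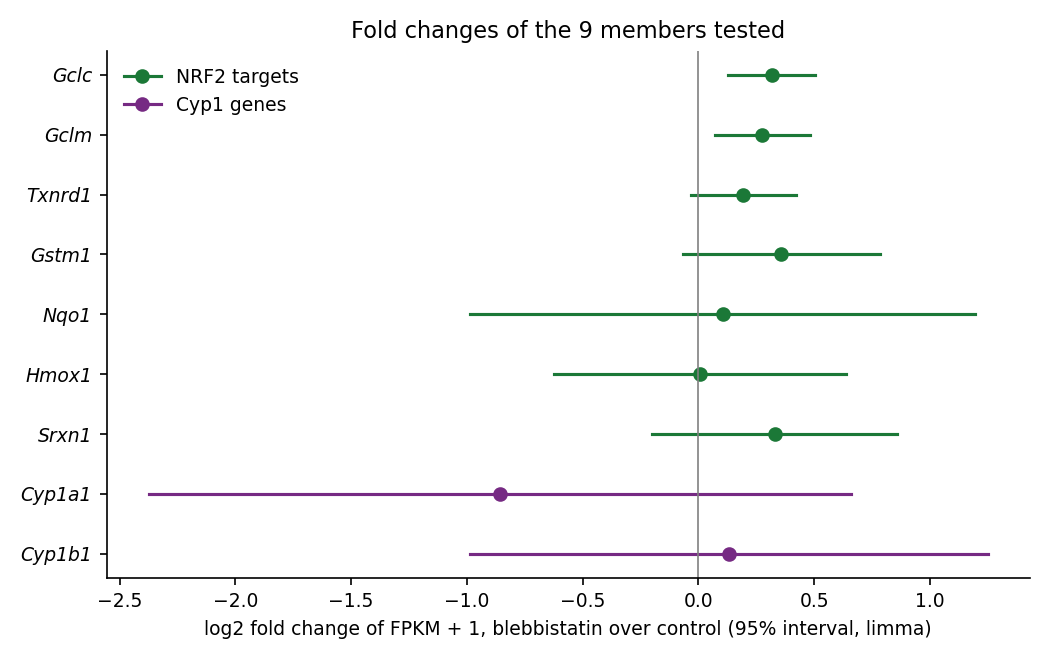
Log2 fold change of FPKM + 1 (horizontal axis), blebbistatin over control, with the 95% interval from limma for the 9 members that passed the filter on low values. NRF2 targets are green and Cyp1 genes purple. The intervals of Gclc and Gclm lie above 0, and the widest belong to Cyp1a1, Cyp1b1 and Nqo1.

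The Cyp1 genes, whose products oxidize aromatic hydrocarbons and estrogens, differed more among libraries of a group than between groups. Cyp1a1 stood at 10.2, 1.59 and 1.37 FPKM under blebbistatin and 15.8, 4.25 and 3.66 FPKM in controls. Replicate 1 was the highest in each group, so that the treated range contained the 2 lower controls. Nearly all of this RNA came from the start at 57697613 on chromosome 9, whose window is printed above, and the transcript of the more upstream start was at or below 0.0852 FPKM. The Cyp1a1 log2 fold change was -0.86 ± 0.66 (SE, limma adjusted p = 0.865), with a 95% interval from -2.38 to 0.66. It was below 0 in all 13 alternatives, between -1.59 without blebbistatin replicate 1 and -0.27 without control replicate 1, with -0.53 and -0.46 when blebbistatin replicate 2 or 3 was left out, and it was -0.998 without either of the libraries numbered 1 (adjusted p = 0.122), a setting chosen after the data were seen.

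Cyp1b1 was the more abundant of the pair, at 94.3, 33.4 and 20.8 FPKM under blebbistatin and 52.7, 35.6 and 26.7 FPKM in controls. Blebbistatin libraries held the highest and the lowest value. The Cyp1b1 log2 fold change was 0.13 ± 0.49 (limma adjusted p = 0.998), and it turned to -0.47 without blebbistatin replicate 1, to -0.095 without control replicate 3 and to -0.22 without either of the libraries numbered 1. At an adjusted p of 0.05, 0 of the 2 Cyp1 genes passed, and at an unadjusted p of 0.05 likewise 0.

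Over all 6 libraries the highest value of Cyp1a1 was 11.5 times the lowest, and the ratio was 4.54 for Cyp1b1, 3.84 for Nqo1, 3.39 for Hmox1 and 2.75 for Srxn1. Of all genes tested, 99.5% had a smaller ratio than Cyp1a1 and 96.6% a smaller one than Srxn1. Gclc, Gclm and Txnrd1 were steadier, with ratios from 1.33 to 1.36, near the middle of all genes tested (50.2% to 55.2% had a smaller ratio). Replicate 1 was the highest of its group in both groups for 8 of the 10 members, against 22.9% of all genes tested. The exceptions were Gclc and Slc7a11.

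Tiparp, which encodes an ADP-ribosyltransferase that represses AHR, and Krt5, a keratin of basal epithelial cells, were also highest in replicate 1 of both groups; both were picked after their values were seen. Of the 7 epithelial markers, 4 (Krt5, Krt8, Krt14 and Krt19) were highest in replicate 1 of both groups. Tiparp stood at 13.6, 7.98 and 6.83 FPKM under blebbistatin and 13.1, 8.48 and 7.003 FPKM in controls. Ahrr, the AHR repressor, stood at 0.924, 0.301 and 0.188 FPKM under blebbistatin and 0.650, 0.315 and 0.407 FPKM in controls. Krt5 stood at 30.2, 14.3 and 11.9 FPKM under blebbistatin and 33.5, 14.3 and 14.8 FPKM in controls, and its part in the values of the Cyp1 genes was not tested.

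**Figure D4:**
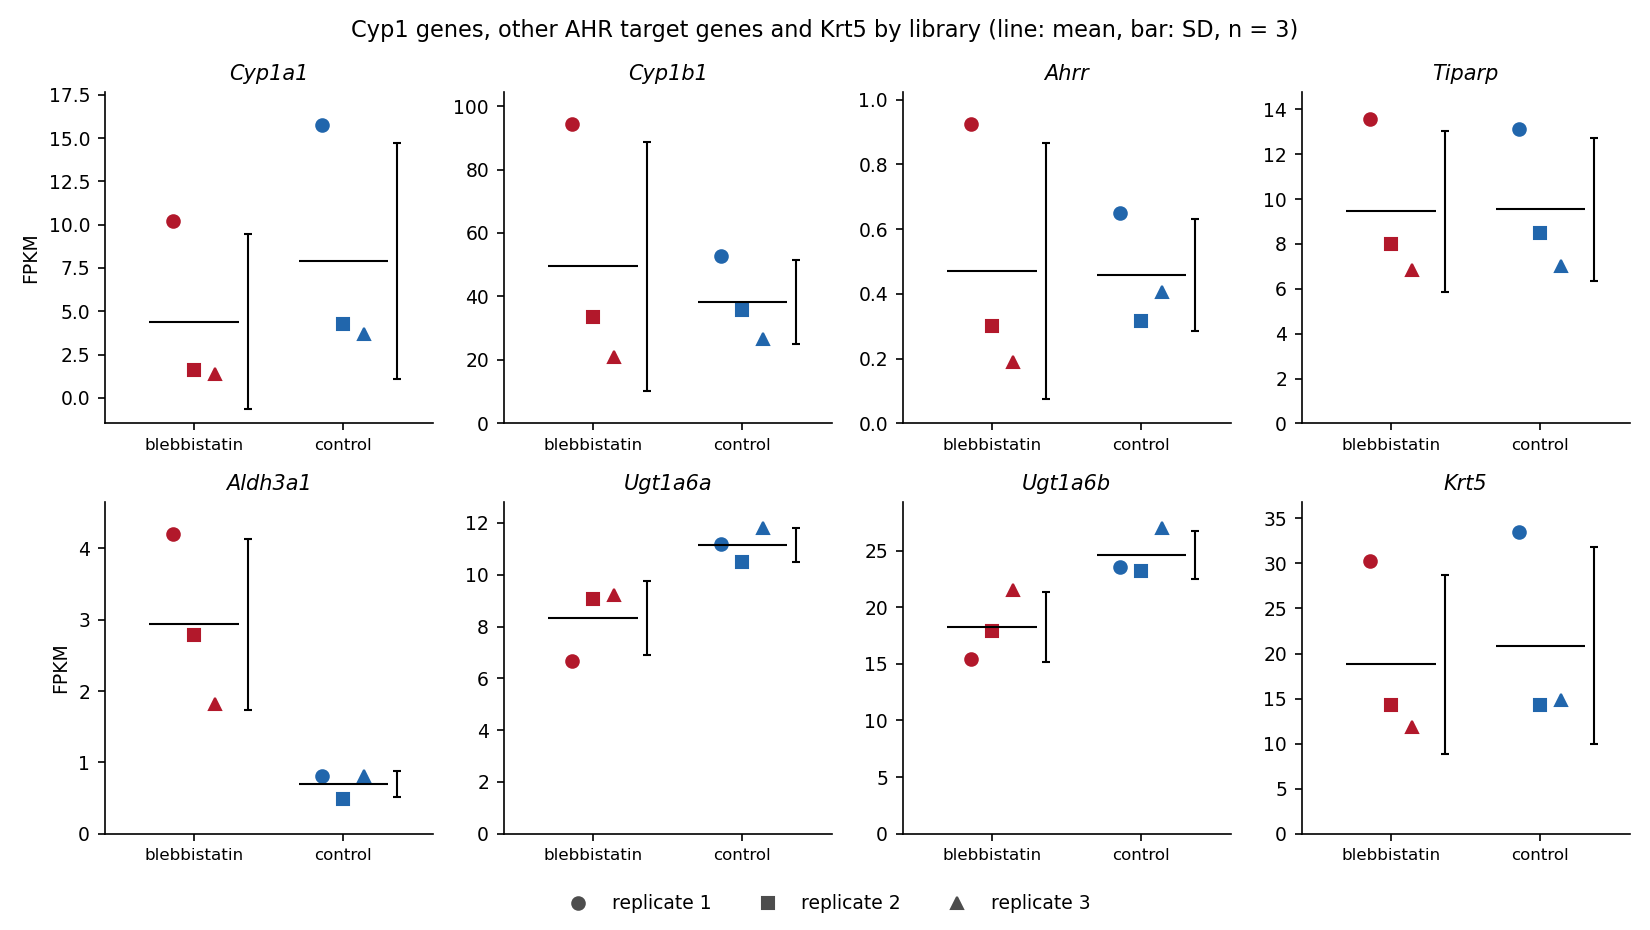
FPKM of the 2 Cyp1 genes, of 5 other AHR target or regulator genes and of the keratin Krt5 in each library, with blebbistatin left of control. Marker shape gives the replicate number, the line the mean and the bar the SD over 3 libraries. Replicate 1 is the highest of its group for Cyp1a1, Cyp1b1, Ahrr, Tiparp and Krt5, while Aldh3a1 is higher and Ugt1a6a and Ugt1a6b are lower in every blebbistatin library than in any control.

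Other AHR targets did not share 1 direction. Of 7 genes listed, 5 were tested, 2 with higher and 3 with lower means, and 0 passed (median log2 fold change -0.022). Aldh3a1, an aldehyde dehydrogenase that is a target of AHR and is also listed for NRF2, stood at 4.20, 2.79 and 1.82 FPKM under blebbistatin and 0.807, 0.489 and 0.802 FPKM in controls. All treated libraries lay above all controls, with a log2 fold change of 1.17 ± 0.21 (SE, limma adjusted p = 0.0928). Its control mean was 0.699 FPKM, so it passed the filter of 1 FPKM only through the treated libraries. With a pseudocount of 0.1 FPKM the log2 fold change was 1.88. Over 12 alternatives the adjusted p ranged from 0.0469 to 0.279, and it passed only without blebbistatin replicate 3 (log2 fold change 1.39). Ugt1a6a and Ugt1a6b encode UDP-glucuronosyltransferases, and they were the 2 listed genes in which every treated library lay below every control, against 6.8% of all genes tested. Ugt1a6a stood at 6.67, 9.07 and 9.22 FPKM under blebbistatin and 11.2, 10.5 and 11.8 FPKM in controls (log2 fold change -0.39 ± 0.12, adjusted p = 0.297), and its fold change was -0.26 without blebbistatin replicate 1. Ugt1a6b stood at 15.4, 17.9 and 21.5 FPKM under blebbistatin and 23.5, 23.2 and 27.0 FPKM in controls (-0.42 ± 0.13, adjusted p = 0.281). Both belong to a gene complex whose members share their last exons, so their separate values are uncertain. Cyp1a2 lay at or below 0.0493 FPKM in every library.

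Among 38 further NRF2 targets, 32 were tested, 22 with higher and 10 with lower means, and 0 passed. Their median log2 fold change was 0.089, against 0.28 for the members and 0.015 for all genes. Both this list and the members were chosen with earlier results of these data known. In 3 of the 32 (Aldh3a1, Ephx1 and Gstm2) every treated library lay above every control, against 7.48% of all genes tested, and in 1 (Ugt1a6a) every one lay below, against 6.8%. Of these, Aldh3a1 entered the test only through its treated libraries. Ephx1, the microsomal epoxide hydrolase, stood at 27.1, 26.3 and 22.8 FPKM under blebbistatin and 17.7, 14.3 and 17.2 FPKM in controls. Its log2 fold change was 0.60 ± 0.11 (SE, limma adjusted p = 0.0929), and it lay between 0.51 and 0.68 over the 13 alternatives. The ferritin chains, the most abundant of the list, had log2 fold changes of 0.12 ± 0.23 (Ftl1) and 0.11 ± 0.15 (Fth1).

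No regulator of NRF2 or AHR passed the test. Of 12 NRF2 regulators, all tested, 4 had higher and 8 lower means, with log2 fold changes from -0.16 (Bach2) to 0.22 (Mafk) and a smallest adjusted p of 0.63. Nfe2l2 itself averaged 43.7 FPKM under blebbistatin and 45.0 FPKM in controls (log2 fold change -0.045, 95% interval -0.31 to 0.22), and Keap1 averaged 27.6 FPKM under blebbistatin and 27.7 FPKM in controls (-0.00056, -0.26 to 0.26). Mafk, a small MAF partner of NRF2, averaged 5.85 FPKM under blebbistatin and 4.85 FPKM in controls, and the groups overlapped. Of 8 genes of the AHR complex and its regulators 7 were tested, 5 with higher and 2 with lower means. Ahr averaged 10.1 FPKM under blebbistatin and 9.66 FPKM in controls (0.065, -0.21 to 0.34), and its partner Arnt 15.6 FPKM under blebbistatin and 15.1 FPKM in controls (0.049, -0.16 to 0.25). Arnt2 was the member of that list with the smallest adjusted p, 0.572, at 19.0 FPKM under blebbistatin and 16.7 FPKM in controls. It was the 1 gene of the 7 tested in which every treated library lay above every control, against 7.48% of all genes tested.

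**Figure D5:**
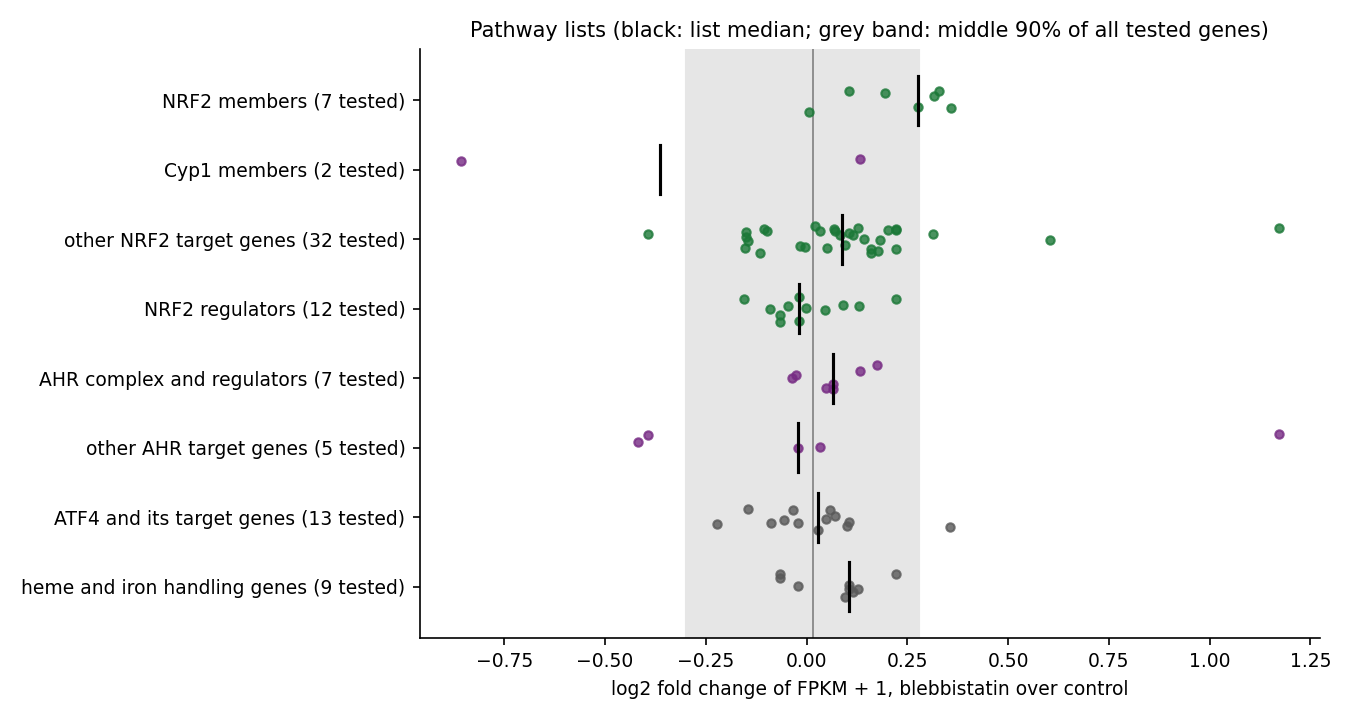
Log2 fold change of FPKM + 1, blebbistatin over control, of each tested gene in 8 pathway lists, with NRF2 lists in green, AHR and Cyp1 lists in purple and the other lists in grey. Black bars are list medians, the thin line is the median of all genes tested, and the grey band holds the middle 90% of single genes (-0.30 to 0.28), which is not the spread of a list's median. The NRF2 members have a median of 0.28, the other NRF2 targets one of 0.089 and the NRF2 regulators one of -0.019. All lists were chosen with earlier results of these data known.

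On mm10 coordinates, counted from 1, Gclc lies on chromosome 9 from 77754535 to 77794489, Gclm on chromosome 3 from 122245557 to 122267215 and Txnrd1 on chromosome 10 from 82833951 to 82897724. Srxn1 lies on chromosome 2 from 152105524 to 152111376, Gstm1 on chromosome 3 from 108012250 to 108017973 and Slc7a11 on chromosome 3 from 50364936 to 50443613. Nqo1 and Hmox1 both lie on chromosome 8, from 107388225 to 107403205 and from 75093618 to 75100593. Cyp1a1 lies on chromosome 9 from 57687928 to 57703824, and Cyp1b1 on chromosome 17 from 79706953 to 79715041. In the annotation the authors deposited, the exons of these 10 genes overlap those of no other gene.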

How the data were processed

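Libraries were made from total RNA with the Illumina TruSeq RNA kit, per the labels' protocols. The submitters' processing notes name Cufflinks 2.2.1, TopHat2 2.0.13, Bowtie2 2.2.3 and the build mm10. Values deposited by the authors are FPKM per gene and per transcript, with 1 column per library, per the file headers, and a deposited RefSeq annotation gave positions. Columns were matched to samples by name. BB was read as blebbistatin and an unnumbered column as replicate 1.

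FPKM are not counts, so log2(FPKM + 1) of the 11540 genes with a mean of at least 1 FPKM was tested with limma 3.58.1 (R 4.3.3; mean-variance trend, treatment as the only term). P-values were adjusted over all genes by the Benjamini-Hochberg method at 0.05. Fold changes are blebbistatin over control and understate those of low genes. Transcripts were tested likewise. Transcript shares were tested on the arcsine square root scale, in genes with at least 2 transcripts and a mean sum of at least 5 FPKM, for mean shares between 0.05 and 0.95. The fits were tested on simulated data with independent libraries. The changes simulated for the gene fit were larger than the main log2 fold change of any member. Recovery of changes as small as those of the members was not tested. Alternatives changed the pseudocount, filter, scaling, libraries and blocking.

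The members and lists were chosen with earlier results of these data known. Named were all members and, per list, genes from among the 4 of smallest p and the 2 of highest mean, not always all of them, and in lists of regulators any gene. Tiparp, Cyp1a2, Gstm3, Gstm4, Gstm5 and Gstm6 were named outside this rule.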

Additional observations from a re-analysis of the deposited data

How the results depend on the processing

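Of 115 values of the members' log2 fold changes under alternatives, 102 kept their sign and their side of the threshold. The cause of the differences was not tested. The 12 that changed sign, none past the threshold, were those of Nqo1 (-0.33 without blebbistatin replicate 1, -0.28 without control replicate 2, up to 0.56 without control replicate 1), Hmox1 (-0.030 with a pseudocount of 0.1, -0.0069 after median-of-ratios rescaling, -0.17 without both libraries numbered 1, and -0.29 to 0.32 without 1 library, being negative without blebbistatin replicate 1 or 2 or control replicate 2 or 3) and Cyp1b1 (-0.47 without blebbistatin replicate 1, -0.095 without control replicate 3, -0.22 without both libraries numbered 1, up to 0.60 without blebbistatin replicate 3). The count of 9 genes past the threshold was 1 with no filter, 27 with a mean of at least 5 FPKM, 2 after median-of-ratios rescaling, 14 after quantile normalization, 4 without both libraries numbered 1, and 1 to 13 without 1 library. The count of 1 transcript was 2 with a mean of at least 5 FPKM and 1 to 11 without 1 library. The count of 0 transcript shares was 2 with a summed minimum of 1 FPKM and 0 to 2 without 1 library. The median of the NRF2 members stayed between 0.12 and 0.35. Depth limits Hmox1 and Slc7a11, which rest on the fewest fragments in some libraries (55 and 117), beside Cyp1a1 (101).

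The labels give no meaning to the shared replicate numbers. In a fit with a replicate block, 144 genes passed, and of the members Cyp1a1 alone (log2 fold change -0.86, limma adjusted p = 0.0372, against 0.122 to 0.9999 in the other alternatives), while the median of the NRF2 members was 0.28 and 1 transcript and 0 shares passed. Deviations from the group means correlated across genes at 0.182, 0.0941 and 0.253 for libraries with the same number, and every library correlated best with its own number. This is a hint from the data and not from the design.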

Other observations

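Heme and iron handling genes act with Hmox1, and ATF4 is a further known activator of Slc7a11. Of 9 tested heme and iron genes 6 had higher and 3 lower means under blebbistatin (median log2 fold change 0.11), and 0 passed (limma, smallest adjusted p = 0.574). Blvra, a biliverdin reductase that acts after heme oxygenase, averaged 16.2 FPKM under blebbistatin and 13.7 FPKM in controls (log2 fold change 0.22 ± 0.10, SE), with the groups overlapping. Slc40a1, the iron exporter ferroportin, averaged 6.22 FPKM under blebbistatin and 5.59 FPKM in controls (0.13 ± 0.11). Slc11a2 averaged 9.62 FPKM under blebbistatin and 8.87 FPKM in controls (0.11 ± 0.08). It was the 1 gene of the 9 in which every treated library lay above every control, against 7.48% of all genes tested.

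Of 13 genes for ATF4 and its targets, all tested, 7 had higher and 6 lower means (median log2 fold change 0.028), and 0 passed. Phgdh, the first enzyme of serine synthesis, stood at 304, 280.5 and 265.5 FPKM under blebbistatin and 242, 215 and 207 FPKM in controls (log2 fold change 0.36 ± 0.11, limma adjusted p = 0.269). It was the 1 gene of the 13 in which every treated library lay above every control, against 7.48% of all genes tested. Atf4 itself averaged 175 FPKM under blebbistatin and 171 FPKM in controls (0.028 ± 0.14), and the amino acid transporter Slc7a5 averaged 62.0 FPKM under blebbistatin and 71.1 FPKM in controls (-0.22 ± 0.23).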
